A study of Homo sapiens with 6 samples.

Results

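The clustered protocadherins are the genes of the alpha, beta and gamma protocadherin clusters, which lie next to each other on chromosome 5. They were taken as every gene whose symbol starts with *PCDHA*, *PCDHB* or *PCDHG*, which gave 53 of the 20347 genes measured: 15 alpha, 16 beta and 22 gamma genes. RNA-seq had been performed in PaTu8988t, an established human pancreatic ductal adenocarcinoma (PDAC) cell line grown in high-glucose medium with serum. A group of 3 control libraries, labelled Control, was compared with 3 libraries of cells labelled SAMD1 KO, in which *SAMD1* was knocked out by CRISPR/Cas9. SAMD1 is a chromatin protein that binds unmethylated CpG islands, and the comparison asks which genes change in these cells without it. The 3 SAMD1 KO libraries come from 3 clonally independent lines, so each clone is a single library with no replicate of its own. The sources used here do not say whether the control libraries came from separate cultures or clones, and p-values measure the spread between these libraries.

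Protocadherins of the clusters are cell-surface adhesion proteins of the cadherin superfamily that bind the same isoform on a neighbouring cell. In the alpha and gamma clusters each gene is a large variable exon with a promoter of its own, spliced to constant exons that all genes of that cluster share, while a beta gene is a lone exon with no constant part. In neurons each cell uses its own small set of these promoters, a choice that involves CTCF, cohesin and DNA methylation and gives the cell a surface identity. The C-type genes at the ends of the alpha and gamma clusters are used more uniformly. In epithelial cells and carcinomas the clusters are known as a region whose promoters can be methylated together.

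The 53 genes all lie on the plus strand of chromosome 5 within 726.8 kb (GENCODE 44 on GRCh38). The alpha genes run from 140786136 to 141012347, the beta genes from 141051374 to 141249365 and the gamma genes from 141330514 to 141512977. *TAF7*, a general transcription factor subunit, and *SLC25A2*, a mitochondrial carrier, sit between the beta and gamma genes. The shared exons matter for the counts, because a read from a constant exon cannot be given to a particular alpha or gamma gene. Exons annotated for no other member covered a median of 3293 bases for an alpha gene, 3823 for a beta gene and 2821 for a gamma gene. Of all 50-base stretches of a gene's exons, a median of 49.3% in alpha, 14.1% in beta and 43.7% in gamma genes also occurred in another member. How reads over shared exons were counted is not given in the sources used here, so the level of each alpha and gamma gene is uncertain to that extent. Beta genes also resemble each other, and members are not independent of each other in a library.

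The promoters carry the sequence for which this family is best known, a conserved element around a CGCT core that in most members lies shortly before the transcription start. Of the 53 members, 47 had a promoter in the RefSeq table (GRCh38.p14, 250 bases before the start and 50 after it). The letters CGCT, searched on both strands, were in 46 of these 47 promoters (97.9%), against 69.3% of all 27305 promoters of this length. From each promoter, the 28-base window around a plus-strand CGCT that was most like the windows of its cluster was taken. These windows are shown for the members on which the results turn, with the CGCT core in capitals and written 5′ to 3′.
PCDHA7: tggccacatgatgtCGCTctttaccgca
PCDHA10: aagccaccggatgtCGCTgtcgtccaca
PCDHA11: taggcgcaaggtgtCGCTctttacttgg
PCDHAC2: gagcagtccgggttCGCTgtccgccact
PCDHB8: aggacccgtggtggCGCTgcaggataag
PCDHB13: aggacgcgtggtggCGCTgcaggataag
PCDHB16: agaacgcgtggtggCGCTgcaggttaag
PCDHGB2: aaacctctgagcgtCGCTgttggtcaaa
PCDHGC3: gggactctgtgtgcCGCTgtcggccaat
PCDHGC4: ctgagcccgggagcCGCTgtctgccaat

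The windows were not all alike. Those of *PCDHAC2* and *PCDHGC4* each differed at 12 of 28 bases from the window most typical of their cluster, against a median of 6 in the alpha and 6 in the gamma cluster. Windows not shown differed at up to 16 bases in the alpha (*PCDHAC1*), 14 in the beta (*PCDHB1*) and 21 in the gamma cluster (*PCDHGB7*). Whether such windows hold the conserved element was not tested. Counted from the RefSeq start at 0, the core began at 3 in *PCDHB8*, inside the transcript, and at −199 in *PCDHGB2*, against medians of −55 for alpha, −61.5 for beta and −60 for gamma elements. The base before the core differed between the clusters. It was T in 12 of 12 alpha windows, G in 13 of 14 beta windows and C in 13 of 20 gamma windows. Windows were picked for likeness over all 28 bases, this base included, so these counts partly follow from that choice. With G before the core, a beta window contains GCGC, the motif that the study relates to SAMD1. GCGC was in 13 of 14 beta promoters (92.9%), 15 of 20 gamma promoters (75%) and 3 of 13 alpha promoters (23.1%), against 56.5% of all promoters, and in the beta element it overlaps CGCT in the letters GCGCT. A match of these letters is a description of the sequence only, since SAMD1 binding was not analysed here. The promoters were poor in CpG, with a median of 7 CpG in the whole 300 bases for alpha, 7.5 for beta and 7 for gamma genes, against 13 for all promoters. The C-type promoters were richer, with 15 CpG for *PCDHAC2*, 27 for *PCDHAC1*, 18 for *PCDHGC3* and 23 for *PCDHGC4*. The 250 bases before the start of *PCDHB16*, the beta gene with the highest level, are given as an example (chr5:141182137-141182386, plus strand, RefSeq, GCGCT in capitals).
PCDHB16 promoter: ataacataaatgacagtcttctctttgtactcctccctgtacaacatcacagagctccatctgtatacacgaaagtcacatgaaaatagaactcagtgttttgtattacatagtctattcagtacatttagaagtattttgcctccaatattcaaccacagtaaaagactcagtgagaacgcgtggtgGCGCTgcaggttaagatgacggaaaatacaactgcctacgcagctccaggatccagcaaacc

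The libraries held 35589477 to 45172216 reads, recovered from the normalized counts. *SAMD1* itself had normalized counts of 2231, 2382 and 2299 in the controls and 874, 1082 and 825 in clones 1 to 3, a log2 difference of −1.32 (SE 0.10, limma, adjusted p = 0.000724), so each clone was below every control. Of the 7 ductal epithelial markers listed, 6 were over the count minimum and *KRT19* was at 0 in every library, and their sum, nearly all *KRT8* and *KRT18*, was 62919 to 66125 in the controls and 67895 to 108814 in the clones. The sum of the neuronal markers, of interest because neurons are the best-known users of these clusters, was 162 to 173 in the controls and 179 to 204 in the clones. Most of it was *TUBB3* (mean 65.2 in the controls, 79.9 in the clones) and *SYP* (67.9 and 84.3), neither of them called. The rest of this list, *MAP2*, *RBFOX3*, *SYT1*, *GAP43* and *SNAP25*, had lower means in the clones, and all but *MAP2* were under the count minimum. The leukocyte sum lay outside the control range in the clones (355 to 370 in the controls, 244 to 328 in the clones, nearly all of it *CD68*), and those of fibroblast (167 to 170 against 164 to 458) and endothelial markers (77.8 to 84.8 against 33.6 to 83.6) were spread among the clones. Of these lists, *DCN*, *LUM* and *CD3E* were at 0 in every library, and the part of these shifts in the results below was not tested. In bulk RNA, fewer cells using a gene and less RNA per cell cannot be told apart.

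PaTu8988t cells used the clusters at a low level, and a few genes held most of it. All 53 genes together had a normalized count of 2312 ± 87.4 (SD, n = 3) in control cells. A gene was tested when its normalized count averaged 10 or more across the 6 libraries, which was so for 25 members: 3 of the alpha, 9 of the beta and 13 of the gamma genes. The other 28 had means of 8.74 at most, and among them *PCDHB1* had no reads in any library. Levels of different genes were compared as normalized count per kb of exon that no other member shares. On this scale *PCDHGC3*, a C-type gamma gene that is known to be used outside the nervous system too, was at 224 ± 9.34 (SD, n = 3) in control cells. *PCDHB16* came next at 66.2 ± 3.68, followed by *PCDHGB2* at 45.4 ± 5.67. The next levels, *PCDHB13* at 36.6 ± 4.44, *PCDHB8* at 34.0 ± 4.25 and *PCDHB14* at 32.8 ± 2.49, did not differ beyond their spread, and neither did *PCDHGB1* at 28.1 ± 2.82, *PCDHAC2* at 27.7 ± 2.42 and *PCDHB2* at 26.0 ± 4.86.

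**Figure D1:**
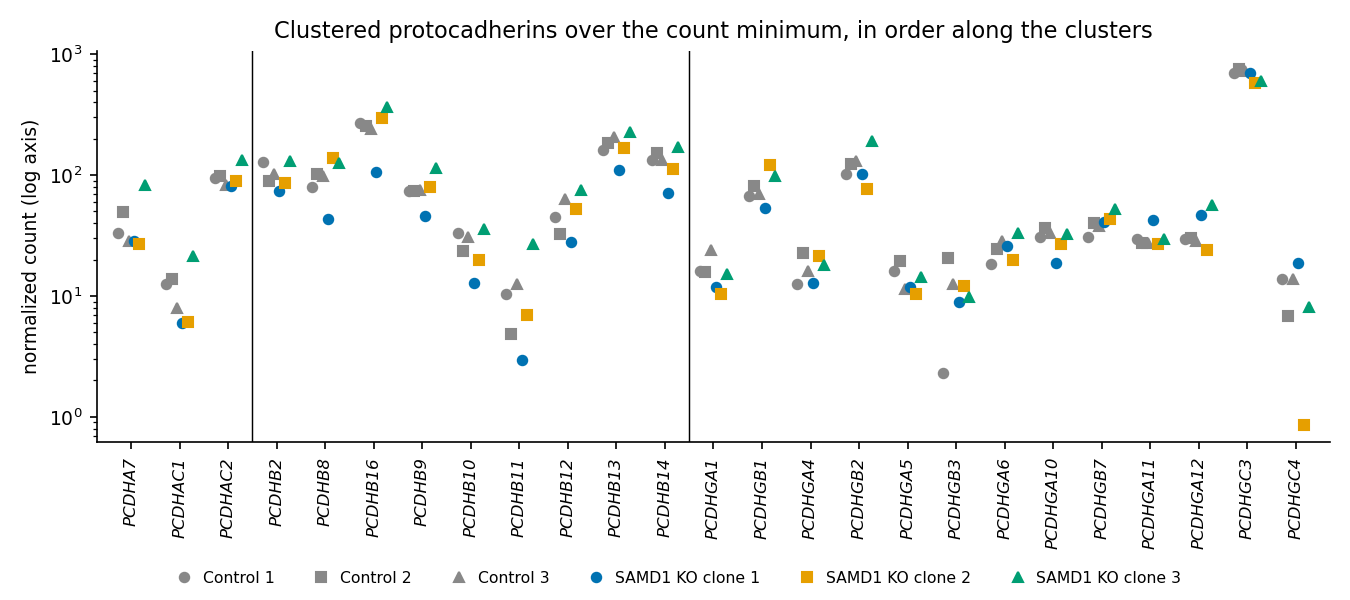
Normalized count (log axis) of the 25 tested members in each of the 6 libraries, in order along the chromosome, with lines between the alpha, beta and gamma clusters. *PCDHGC3* stands above the rest in every library, and clone 1 is the lowest of the 6 libraries for each of the 9 tested beta genes.

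Each cluster had a leading gene, whose share of the cluster's summed normalized count (not per length) is given here. *PCDHGC3* held 61.3% ± 2.16 (SD, n = 3) of the gamma sum in control cells and 56.3% ± 6.24 in the clones. *PCDHAC2* held 57.1% ± 2.95 of the alpha sum in control cells and 49.7% ± 6.48 in the clones. In the beta cluster the use was more even, and *PCDHB16* held 26.4% ± 1.84 in control cells and 26.3% ± 4.74 in the clones. The share of *PCDHGC3* was below all control libraries in clones 2 (57.2%) and 3 (49.6%), and that of *PCDHAC2* in clones 1 (49.1%) and 3 (43.6%).

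The question of whether loss of SAMD1 changed these genes in all clones alike was asked with limma on log2(normalized count + 1), fitted on all 12773 tested genes. None of the 25 tested members was called (log2 fold change beyond 0.5 and unadjusted p below 0.01), while 7.85% of all tested genes were, 5.77% higher and 2.08% lower. With an adjusted p below 0.05 in place of the unadjusted p, 0 of 25 members were called, against 7.21% of all tested genes. edgeR and DESeq2 on the recovered reads called 0 of the 25 as well. At an unadjusted p below 0.05, limma passed 1 of 25 members, against 29.6% of all tested genes, and both edgeR and DESeq2 passed 0. The log2 difference of *SAMD1* KO against control was above 0 for 11 members and below 0 for 14, with a median of −0.03 (−0.01 over all tested genes). The groups did not overlap for 3 of the 25, against 37.8% of all tested genes. The 95% confidence intervals were wide, with a median distance of 0.74 from the estimate to its bound on the log2 scale (0.22 to 1.95), and they lay within ±1 for 12 of 25 members. A 2-fold change in all clones alike therefore lay outside the interval for these 12 members and within it for the other 13.

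The member with an unadjusted p below 0.05 was *PCDHGC3*. Its normalized counts were 700.0, 760.2 and 723 in the controls and 697, 577 and 596 in clones 1 to 3. Every clone was below every control, clone 1 by very little. The log2 difference was −0.23 (SE 0.09, limma, 95% interval −0.45 to −0.0044), and the adjusted p over all tested genes was 0.162 (limma).

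The other members with groups that did not overlap, *PCDHGA1* and *PCDHGB7*, lay on opposite sides of the controls. *PCDHGA1*, the first gamma gene, had 16.0, 15.7 and 24.1 in the controls and 11.9, 10.4 and 15.3 in the clones (log2 difference −0.53, SE 0.31, adjusted p = 0.295, limma). *PCDHGB7* had 30.9, 40.1 and 37.8 in the controls and 40.5, 43.2 and 52.2 in the clones (log2 difference 0.31, SE 0.21, adjusted p = 0.357, limma). Neither passed the test, and in both the closest control and clone values differed by little.

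In the beta cluster the clones differed from each other far more than they differed from the controls as a group. The summed normalized count of all 16 beta genes was 961, 941 and 986 in the controls, and 509, 990.1 and 1307 in clones 1, 2 and 3. Clone 1 was at 0.529 times the control mean, clone 2 at 1.03 and clone 3 at 1.36 times. For the clones the sums rest on 515, 1146 and 1453 reads, and for the controls on 840 to 962 reads. The mean of the clones, 935 ± 402 (SD, n = 3), was 0.972 times that of the controls, 963 ± 22.6, and only clone 2 lay near it. Without clone 1 the ratio was 1.19, and without clone 3 it was 0.779.

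**Figure D2:**
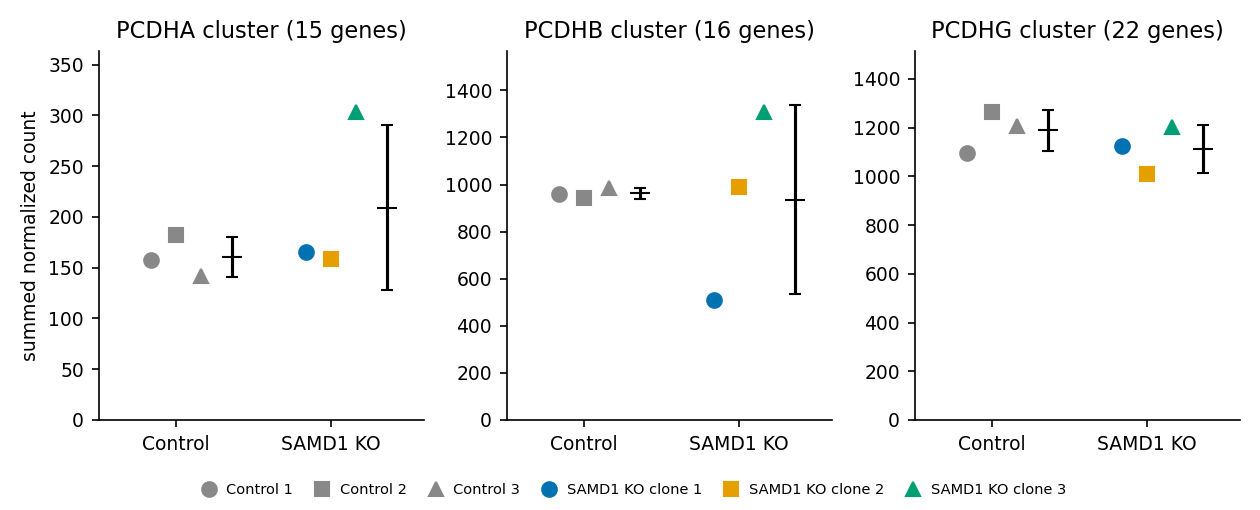
Summed normalized count of all members of each cluster (alpha 15, beta 16, gamma 22 genes) in every library, with the mean and SD of each group as black bars. The 3 control sums lie close together in the beta cluster (941 to 986) while the clones range from 509 to 1307; in the alpha cluster clone 3 stands apart at 303.

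The beta genes went together in clones 1 and 3. In clone 1 all 9 tested beta genes lay below all 3 control libraries, with a median log2 difference of −0.96 from the control mean. In clone 3 all 9 lay above all controls, with a median of 0.43. Of the 9, *PCDHB11* reached the count minimum only through its high value in clone 3, so its place among them depends on that value. The rest were over the minimum without clone 3. Of all tested genes, 39.8% lay below the controls in clone 1 and 39.6% above them in clone 3, so for a lone gene either is common. None of the 9 was above the controls in clone 1 (39.3% of all tested genes) or below them in clone 3 (40%). Clone 2 was mixed, with 3 beta genes below, 3 above and 3 within the control range (41.3% and 41% of all tested genes lay below and above). The 9 genes share a library and parts of their sequence, so their number does not stand for independent observations.

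*PCDHB16* had normalized counts of 269, 253 and 241 in the controls and 107, 298 and 362 in clones 1 to 3. Clone 1 was far below the controls, and clones 2 and 3 were above them. The log2 difference of the groups was −0.17 (SE 0.41, adjusted p = 0.823, limma), with clones on both sides of the controls. Without clone 1 it was 0.37, with the opposite sign. *PCDHB8*, its neighbour on the upstream side, had 80.1, 102 and 98.5 in the controls and 43.5, 137 and 126 in the clones, so here too clone 1 was below the controls and the other clones above them.

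*PCDHB13* had 162, 186 and 207 in the controls and 111, 166 and 227 in the clones. *PCDHB14* had 133, 152 and 134 in the controls and 71.2, 112 and 170.0 in the clones. In both, clone 1 was the lowest and clone 3 the highest of the clones, and only clone 3 was above the controls. Their log2 differences of the groups were −0.19 (SE 0.25, adjusted p = 0.655, limma) and −0.33 (SE 0.29, adjusted p = 0.501, limma). For *PCDHB14* the latter ran from −0.010 without clone 1 to −0.63 without clone 3.

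The low beta genes *PCDHB10* and *PCDHB11* were also lowest in clone 1 and highest in clone 3. *PCDHB10* had 33.2, 23.5 and 30.9 in the controls and 12.9, 19.9 and 36.0 in the clones. *PCDHB11* had 10.3, 4.89 and 12.6 in the controls and 2.97, 6.91 and 27.0 in the clones, which made it the tested member with the lowest log2 difference in clone 1 (−1.29) and the highest in clone 3 (1.53). These last values rest on few reads, and the clone 3 value was what brought *PCDHB11* over the count minimum. *PCDHB2*, the first tested beta gene along the chromosome, had 128, 89.0 and 102 in the controls and 73.2, 86.4 and 131 in the clones, the smallest difference of the 9 in clone 1 (−0.52).

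**Figure D3:**
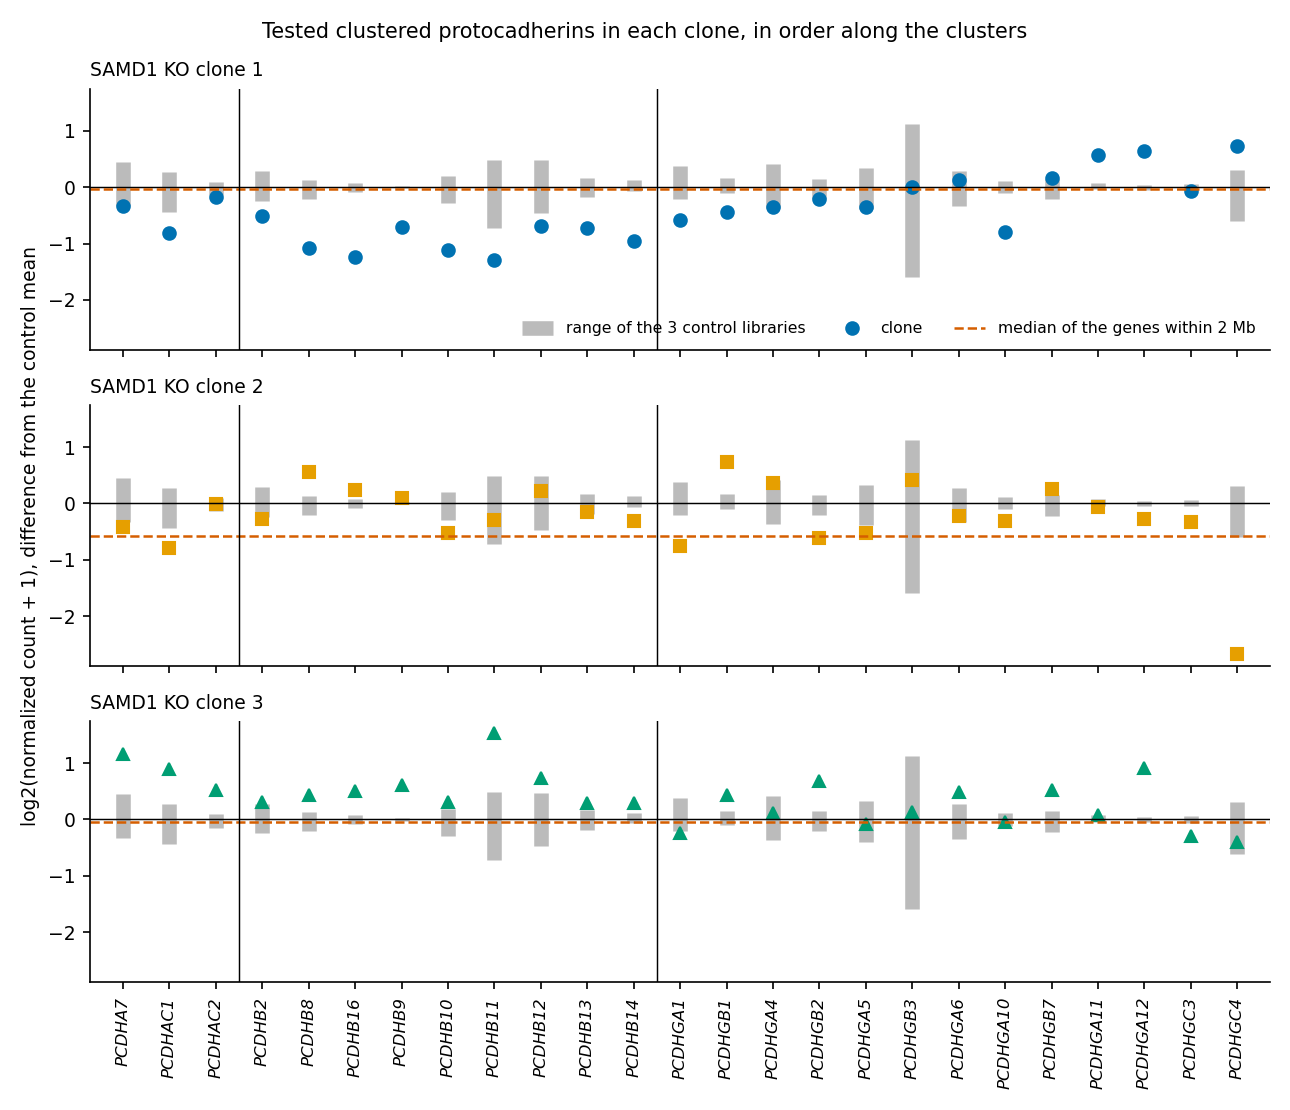
Difference of each clone from the control mean on the scale of log2(normalized count + 1), for the 25 tested members in order along the clusters; grey bars give the range of the 3 control libraries and the dashed line the median of the 45 other tested genes within 2 Mb. All 9 beta genes are below the grey bars in clone 1 and above them in clone 3.

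The alpha cluster was set apart by clone 3. Its summed normalized count was 158, 182 and 142 in the controls and 165, 159 and 303 in clones 1 to 3, so clones 1 and 2 stayed in the control range and clone 3 was 1.89 times the control mean. The ratio of the group means, 1.30, came from clone 3, and without this clone it was 1.01. All 3 tested alpha genes were above all controls in clone 3, with a median log2 difference of 0.89. That median is the value of *PCDHAC1*, which reached the count minimum only through its high value in clone 3. Its inclusion among the 3 therefore depends on the value reported, while *PCDHA7* and *PCDHAC2* were over the minimum without clone 3. Of all tested genes, 39.6% lay above the controls in this clone. The 3 genes share a library and constant exons, so they are not independent observations.

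*PCDHA7*, the only alternate alpha gene over the count minimum, had 33.2, 49.9 and 28.6 in the controls and 28.7, 26.8 and 82.8 in the clones. *PCDHAC1* had 12.6, 13.7 and 8.02 in the controls and 5.93, 6.05 and 21.6 in the clones. *PCDHAC2*, the alpha gene with the largest share of the sum, had 93.8, 97.8 and 82.5 in the controls and 81.1, 89.9 and 132 in the clones. In each of them clone 3 was the highest of the 6 libraries, and the adjusted p of the group difference was 0.754 at the least (limma).

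The gamma cluster was the most even of the clusters in sum, with 1097, 1263 and 1205 in the controls and 1125, 1008 and 1203 in the clones. Clone 2 alone fell below the control range. Because *PCDHGC3* carries most of this sum, the other 21 genes were also summed without it, which gave 397, 503 and 482 in the controls and 428, 431 and 606 in the clones. Clone 3 was then above the control range, at 1.32 times the control mean, and clones 1 and 2 were within it.

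Single gamma genes differed between clones without a shared order. *PCDHGB1* had 67.5, 81.2 and 69.9 in the controls and 53.4, 122 and 98.9 in the clones, which made it the tested member with the highest log2 difference in clone 2 (0.74). *PCDHGB2* had 103, 124 and 132 in the controls and 103, 76.9 and 192 in the clones. Clone 1 was below the controls in the first and barely below them in the second, and clones 2 and 3 were on opposite sides of the controls in *PCDHGB2* only.

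*PCDHGA12*, the last gene before the C-types, had closely spaced control values of 29.7, 30.3 and 28.6, and 46.5, 24.2 and 56.7 in the clones. *PCDHGA10*, an upstream neighbour, had 30.9, 36.2 and 33.2 in the controls and 18.8, 26.8 and 32.4 in the clones. Clone 1 was thus above the controls in one and below them in the other. Neither group difference passed, with an adjusted p of 0.423 and 0.365 (limma).

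*PCDHGC4* was the most variable of all tested members. It had 13.7, 6.85 and 13.7 in the controls, and 18.8, 0.864 and 8.10 in clones 1 to 3. It had the highest log2 difference in clone 1 (0.73) and the lowest in clones 2 (−2.68) and 3 (−0.39). Its mean over the 6 libraries, 10.3, was barely over the count minimum and would not have reached it without clone 1. Its place among the tested members therefore depends on the clone 1 value. The value of clone 2 is 1 read. The third gamma C-type gene, *PCDHGC5*, had no reads in the controls and in clone 1, 1 read in clone 2 and 3 reads in clone 3, and was not tested.

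The spread can be put in numbers over all tested members. The SD of log2(normalized count + 1) had a median of 0.192 among the 3 controls and 0.611 among the 3 clones, against 0.0586 and 0.151 over all tested genes. The clones varied more than the controls in 20 of 25 members (80%), and in 82.8% of all tested genes, so a wider spread among the clones is common to most genes. By cluster the median SD among the clones was 0.893 for alpha, 0.711 for beta and 0.358 for gamma genes. Counting error alone, taken as Poisson, would give a median SD of 0.224 (0.144 for beta genes, 0.0408 over all tested genes). The members' larger spread than that of other genes comes with these lower counts, whose part in it was not tested.

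The region around the clusters was measured through the 45 other tested genes within 2 Mb of them. Their log2 difference from the control mean had medians of −0.02, −0.59 and −0.05 for clones 1 to 3. In clone 2, 42 of the 45 were below the control mean, and the same held for chromosome 5 as a whole (median −0.53 over 562 genes), whereas the median over all tested genes on other chromosomes was 0.01. *TAF7*, between the beta and gamma clusters, followed this, with 6522, 6266 and 6609 in the controls and 6923, 4185 and 5468 in the clones. The changes of the beta and alpha genes in clones 1 and 3 stood beside neighbours whose median was close to 0. In clone 2 the neighbours were lower than the tested members, which had a median of −0.28. The part of this regional shift in the members' values is shown by the next comparison only.

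When the median of the neighbours was subtracted in each library, the picture of clone 2 changed. All 9 tested beta genes were then above 0 in clones 2 and 3 (medians 0.44 and 0.48) and all 9 below 0 in clone 1 (median −0.93). In clone 2, subtracting −0.59 raised every member alike, and the lowest tested beta gene had been at −0.52. That all 9 were above 0 in clone 2 thus follows from the size of this shift. The gamma genes had medians of −0.04, 0.31 and 0.16 in clones 1 to 3, and the 3 alpha genes −0.30, 0.17 and 0.94. On this scale no member was called, and 1 of 25 had an unadjusted p below 0.05, namely *PCDHGA12* (log2 difference 0.64, SE 0.23, adjusted p = 0.112, limma). The subtraction was made for the members only. The share of all tested genes with such a p, 29.6%, is therefore from values that were otherwise left unshifted. *PCDHGC3* had a log2 difference of −0.01 on this scale (SE 0.13).

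**Figure D4:**
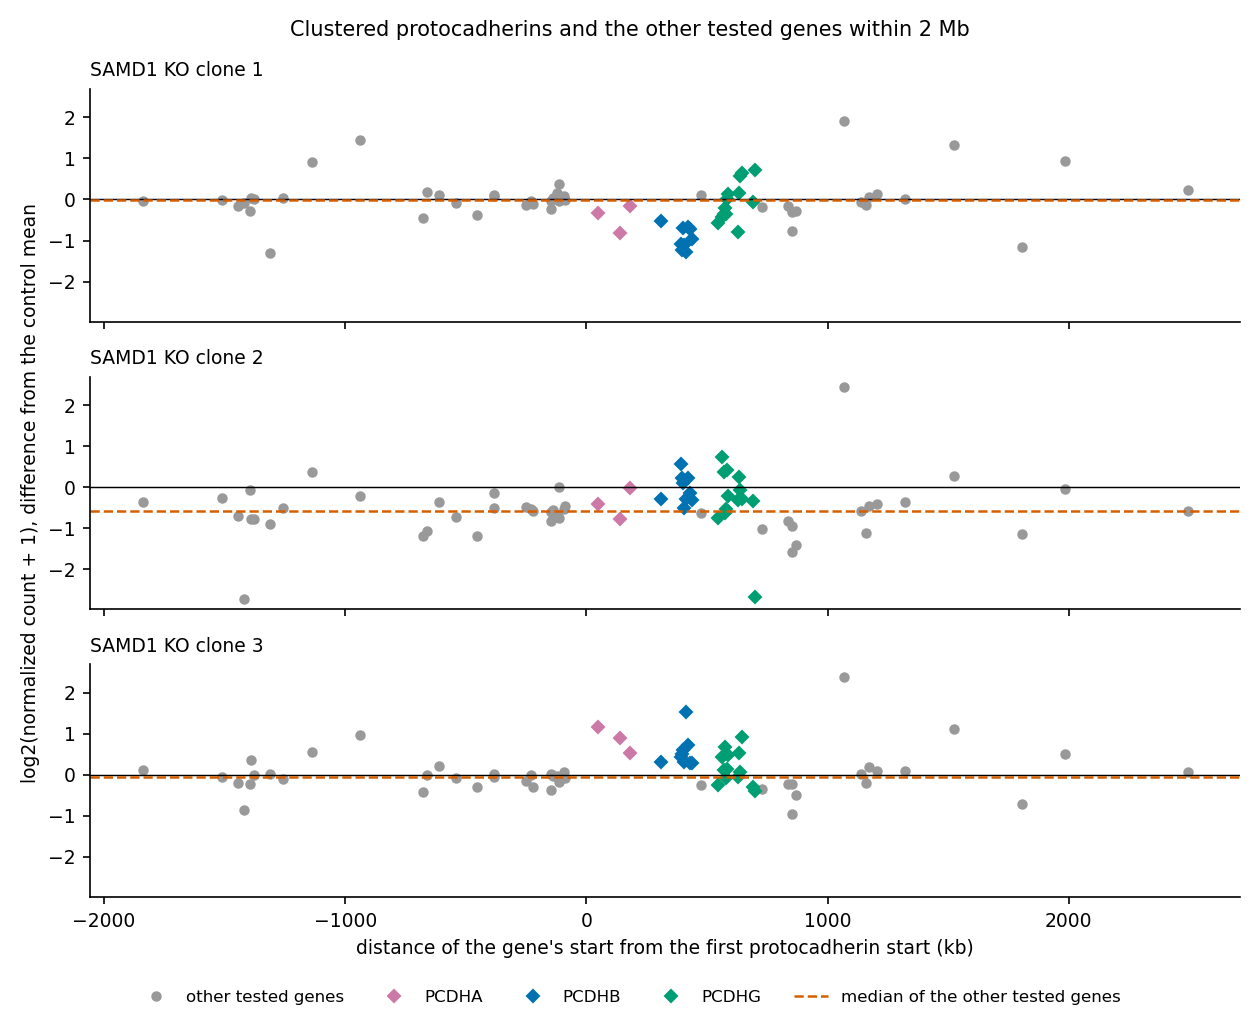
Difference of each clone from the control mean, as log2(normalized count + 1), for the tested clustered protocadherins (diamonds) and the 45 other tested genes within 2 Mb (grey), against the distance of each gene's start from the first protocadherin start in kb. The neighbours centre on −0.02, −0.59 and −0.05 in clones 1, 2 and 3 (dashed lines), with the beta genes under the line in clone 1 and over it in clones 2 and 3.

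Of the 45 neighbours, 3 were called higher and 3 lower, against 5.77% and 2.08% of all tested genes. *PCDH1*, a protocadherin that lies 340.1 kb beyond the gamma cluster and has a promoter and exons outside it, rose from 41.1 ± 4.21 to 200 ± 37.2 (SD, n = 3; log2 difference 2.24, SE 0.19, adjusted p = 0.000861, limma). It was higher in 3 of 3 clones. *CXXC5*, a CpG-binding zinc finger protein (log2 difference 0.61), and *SPRY4*, an inhibitor of growth factor signalling (0.91), were the others called higher. *RELL2* (−1.10), the growth factor gene *FGF1* (−1.01) and *PURA* (−0.69) were called lower. *DIAPH1*, an actin regulator and the nearest neighbour downstream at 2.04 kb, had a log2 difference of −0.51 (SE 0.20, adjusted p = 0.133, limma). Clones 1 to 3 were at −0.77, −1.57 and −0.94 for *RELL2*, and −0.46, −1.20 and −0.41 for *PURA*. They were at −0.18, −1.02 and −0.34 for *DIAPH1*, and −1.16, −1.15 and −0.71 for *FGF1*. The part of the regional shift of clone 2 in these lower values was not tested.

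Among the 28 members under the count minimum, 3 alpha and 2 gamma genes had groups that did not overlap, which makes 8 of all 53 members, against 31.4% of all genes with a read. With no minimum, limma called 2 of 52 members, against 6.74% of all 16476 genes tested. Both, the alpha genes *PCDHA10* and *PCDHA11*, were called higher, as were 4.8% of the genes tested. They fall outside the rule for naming members, and their values were known when they were picked. *PCDHA10* had 3.43, 1.96 and 3.44 in the controls and 10.9, 12.1 and 8.10 in the clones, or 8 reads in all controls and 34 in all clones. *PCDHA11* had 3.43, 0.978 and 1.15 in the controls and 14.8, 6.05 and 20.7 in the clones, or 5 and 45 reads. Both were higher in 3 of 3 clones.

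The log2 difference was 1.53 for *PCDHA10* (SE 0.34, adjusted p = 0.0304, limma) and 2.34 for *PCDHA11* (SE 0.52, adjusted p = 0.0316, limma). From the reads, the ratio of clones to controls was 3.59 for *PCDHA10*, with a 95% interval of 1.63 to 8.97 for counting error only, and 7.60 for *PCDHA11* (3.03 to 24.5). Without a minimum edgeR called both (adjusted p = 0.0496 and 0.0382), and DESeq2 called *PCDHA11* only and gave neither an adjusted p. *PCDHA10* also has the most unshared exon of any alpha gene, 12653 bases. Of the next alpha genes downstream, *PCDHA12* had 7 reads in all controls and 5 in all clones, and *PCDHA13* had no reads in the controls and 5 reads each in clones 1 and 3. The other 26 members under the minimum were not called by any of these fits. Among them *PCDHA9*, the next alpha gene upstream of *PCDHA10*, was the remaining alpha gene without overlap. It had 2 reads in all controls and 11 in all clones, and each clone was above the controls. Of the gamma genes without overlap, *PCDHGB4* was above the controls in each clone and *PCDHGA8* below them.

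Genes that are known to act on the clusters were compared in the same fit, from a list of 51 genes of which 47 were tested. Over the list, 1 gene was called higher and 0 lower, against 5.77% and 2.08% of all tested genes, with a median log2 difference of −0.00015. An unadjusted p below 0.05 was reached by 8 of the 47, against 29.6% of all tested genes. Of the 13 tested genes for CTCF, cohesin and its loaders, none was called by limma, and 1 had an unadjusted p below 0.05 (*ESCO1*, 0.14). Of the 15 tested genes for silencing and DNA methylation, none was called either, and 2 had a p below 0.05: *DNMT3B*, a de novo DNA methyltransferase, with a log2 difference of −0.39 (SE 0.07, adjusted p = 0.0147, limma), and *TET1*, which oxidises methylated cytosine, with 0.76 (SE 0.23, adjusted p = 0.0704, limma). Of the 19 tested genes for the intracellular partners and the cleavage of the proteins, *MARCKS*, an actin-binding protein that gamma protocadherins act on, was called (log2 difference 0.55, SE 0.11, adjusted p = 0.0199, limma), and 5 had a p below 0.05, among them *PDCD10* (−0.21) and *PTK2* (−0.18). *NCKAP1*, a subunit of the WAVE complex that binds alpha and other protocadherins, had 0.30 (SE 0.05, adjusted p = 0.0142, limma) and stayed under the fold change needed for a call. Without clone 2 no gene of the list was called, and without clone 3 it was 2 genes.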

How the data were processed

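RNA-seq libraries of 3 control and 3 *SAMD1* KO samples of PaTu8988t cells were analysed. According to the methods, the authors used RNA-STAR to align reads to GenCode 43 transcripts, counted them per gene (the submitters' notes name featureCounts and build hg38, and the strand setting is not given in the sources used here) and normalized them with DESeq2. The library kit was stranded, and overlapping genes remain uncertain. The deposited signal is a normalized count, the count of a gene over the size factor of its library. Of the values of each library, 100% were whole multiples of 1 step (within 0.001 reads), so reads were recovered. The authors' table of their own comparison (fold changes and p-values) was not used, and 0 sample columns were left out.

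The main test was limma 3.58.1 in R 4.3.3 (lmFit, then eBayes with its trend option) on log2(normalized count + 1), two-sided, for 12773 genes with a mean of at least 10. A fold change understates changes of low genes on this scale. Calls needed a log2 fold change beyond 0.5 and p below 0.01. Adjusted p-values are those of Benjamini and Hochberg over all tested genes. The exact permutation test of 3 against 3 libraries cannot go below 0.1. Cluster sums, shares and clones against the control mean were described without a test.

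The members and lists were chosen with earlier results of these data known. Members named are the 5 of each cluster with the smallest p, the 3 with the highest mean, the C-type genes, and the largest and smallest difference in each clone. Other genes named are *SAMD1*, *TAF7*, *SLC25A2*, the neighbours called, and of the regulators those called and the 3 with the smallest p. *PCDHB8*, *PCDHA9*, *PCDHA10*, *PCDHA11*, *PCDHA12*, *PCDHA13*, *PCDHGA8*, *PCDHGB4*, *DIAPH1*, *ESCO1*, *PDCD10*, *PTK2* and *TET1* fall outside this rule. They were named after their values were seen. Positions are from GENCODE 44 and promoters from RefSeq (GRCh38.p14).

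Alternatives were a pseudocount of 0.1 or 10, a minimum of 50 or none, scaling to the 75th percentile, a block for the replicate number, omission of each library in turn, subtracting the regional median, edgeR 4.0.16 and DESeq2 1.42.0 on recovered reads, and an adjusted p below 0.05. edgeR and DESeq2 without a minimum were added after seeing the data. The steps were tested on simulated data. Python 3.11.15 with pandas 2.3.3, SciPy 1.17.1 and matplotlib 3.10.9 did the rest.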

Additional observations from a re-analysis of the deposited data

How the results depend on the processing

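The count of called members was 0 of 25 in every alternative that kept the minimum of 10 (0 of 10 with a mean of at least 50), and leaving out each library in turn gave 0 each time. Without a minimum it was 2 of 52 with limma, 2 with edgeR and 1 with DESeq2. The count of called regulators and partners was 1 throughout, but 0 without clone 2 and 2 without clone 3. With the replicate number as a block, 0 members and 1 regulator were called and no member had an unadjusted p below 0.05. Deviations of same-numbered libraries from their group means had correlations of 0.039, 0.134 and 0.032, against −0.074 to 0.036 for the other pairs. A batch shared by number was not tested, and the block changed no call. Of 246 values of 17 named members, 217 kept their direction and side of the threshold and 29, none of them called, changed direction. After subtracting the regional median, the log2 difference was 0.21 for *PCDHB11*, 0.025 for *PCDHB13*, 0.053 for *PCDHB16*, 0.060 for *PCDHB2* and 0.17 for *PCDHGB2*. With edgeR it was 0.45 for *PCDHB11*, 0.018 for *PCDHB16* and 0.054 for *PCDHGB2*, and with DESeq2 0.42, 0.011 and 0.050. *PCDHB11* also had 0.083 with a pseudocount of 10 and 0.0035 with rescaling. Leaving out each library gave ranges across 0 for *PCDHA7* (−0.37 to 0.42), *PCDHAC1* (−0.80 to 0.053), *PCDHAC2* (−0.093 to 0.26), *PCDHB11* (−0.79 to 0.62), *PCDHB13* (−0.44 to 0.073), *PCDHB16* (−0.51 to 0.37), *PCDHB2* (−0.40 to 0.018), *PCDHGB2* (−0.42 to 0.24) and *PCDHGC4* (−1.54 to 0.17). The cause was not tested. With 3 libraries a group and 28 members under the minimum, small changes of single members could not be seen.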
